A study of Mus musculus with 2 samples.

Results

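Ucp1 and 8 other genes of brown adipocyte identity were followed through single nuclei of mouse brown fat. They were chosen by symbol (Ucp1, Cidea, Prdm16, Ebf2, Zic1, Dio2, Kcnk3, Letmd1 and Otop1), and all 9 were among the 22620 genes counted in both libraries. Brown adipose tissue of mice aged 4 weeks gave 2 droplet libraries of nuclei, 1 labelled KO, from mice described as Nfe2l1(f)-KO, and 1 labelled Flox. Nfe2l1 encodes a transcription factor that controls proteasome genes. The labels give no Cre driver, deleted exon, treatment, sex or number of mice, and each label has 1 library, so no difference has a replicate check and no p-value was computed. All intervals are 95% intervals for counting error only.

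The library labelled KO held 13030 barcodes and 43080725 UMIs (unique molecules), and the library labelled Flox held 16145 barcodes and 46528077 UMIs. Filters and removal of likely doublets left 11543 nuclei labelled KO (median depth 2639 UMIs) and 13961 labelled Flox (2252 UMIs). Doublets were removed at a fixed rate, 1358 barcodes labelled KO and 2085 labelled Flox. The automatic threshold of the doublet score called 560 and 4426, so doublets may be left in the library labelled Flox. The libraries had 65 barcodes in common. The median mitochondrial share of a nucleus's UMIs was 1.12% in the library labelled KO and 0.42% in the library labelled Flox. Nfe2l1 went against the labels: adipocyte-like nuclei held 9096 of its UMIs in the library labelled KO (312 CPM, that is UMIs scaled to a class total of 1000000) and 3662 in the library labelled Flox (131 CPM), a ratio of 2.38 (2.29 to 2.47). Every direction given here therefore compares 2 labelled libraries. Of 14 clusters, 4 were adipocyte-like by their markers and held 8197 nuclei in the library labelled KO and 8810 in the library labelled Flox. The 14 adipocyte markers summed to 13523 and 11059 CPM there, against 2325 and 2801 CPM in all other nuclei.

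Brown adipocytes burn fuel to make heat. Ucp1 lets protons cross the inner mitochondrial membrane without making ATP, and cold acts on it through noradrenaline and cAMP. Around it stands a programme of other genes. Dio2 makes active thyroid hormone, Cidea coats lipid droplets, Kcnk3 is a background potassium channel, Otop1 a proton channel and Letmd1 a mitochondrial membrane protein needed for thermogenesis in mice. Prdm16, a coregulator, and Ebf2, a DNA-binding factor, direct cells towards the brown fate, and Zic1 is a zinc finger factor used as a marker of classical brown depots.

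Upstream sequence was read from RefSeq's promoter table (GRCm38.p6) for 6 genes of this set, as the 250 bases before each start. They were Ucp1, Prdm16, Zic1, Dio2, Letmd1 and Otop1. No window was read for Cidea, Ebf2 or Kcnk3. The windows of Ucp1 and Dio2 are shown because both genes answer to cAMP in this tissue and both were sparse in these nuclei. Ucp1 lies on the plus strand (window chr8:83290098-83290347) and Dio2 on the minus strand (window chr12:90739039-90739288), each written 5′ to 3′ with matches to a cAMP response element, its short form or a TATA box in capitals.
Ucp1: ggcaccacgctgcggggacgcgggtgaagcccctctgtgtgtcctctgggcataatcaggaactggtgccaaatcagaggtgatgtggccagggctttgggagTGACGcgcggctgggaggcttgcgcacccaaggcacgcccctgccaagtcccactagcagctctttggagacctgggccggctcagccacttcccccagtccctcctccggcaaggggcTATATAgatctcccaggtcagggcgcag
Dio2: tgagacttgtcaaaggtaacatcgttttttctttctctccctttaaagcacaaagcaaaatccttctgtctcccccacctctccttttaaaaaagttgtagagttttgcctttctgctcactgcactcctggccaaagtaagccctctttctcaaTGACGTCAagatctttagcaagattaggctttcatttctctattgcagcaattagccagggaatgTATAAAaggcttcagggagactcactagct
Dio2 held a full cAMP response element, TGACGTCA, starting 95 bases before its start, and TATAAA at 30 bases before it. Ucp1 held only the short form TGACG, at 147 bases, and TATATA at 28 bases. Over 32851 RefSeq windows of this length, both strands, TGACGTCA occurred in 1.55%, TGACG (which the full element contains) in 17.8%, TATAAA in 12.4% and TATATA in 5.25%. CCAAT, in 33.8% of windows, was found in those of Zic1, Prdm16 and Letmd1. The antioxidant-type core TGACNNNGC (10.2% of windows) and the element TCAAGGTCA of the ERR receptors (0.387%) were in none of the 6. These matches describe letters in the windows and nothing about binding.

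Over the whole adipocyte-like class, none of the 9 genes was 1.5-fold apart between the libraries. Ebf2 and Otop1 were somewhat higher in the library labelled KO, Zic1 and, by less, Ucp1 were lower, and Kcnk3 and Letmd1 stood within 3% of equal. Of 12305 genes with at least 50 UMIs, 2.03% passed 1.5-fold upwards in the library labelled KO and 8.14% passed it downwards. The median log2 ratio, KO over Flox, was 0.12 over the 9 genes and -0.06 over all genes, and 6 of the 9 were above 0. Without the adipocyte-like cluster led by Gbp genes (cluster 2) the median of the 9 was -0.0064, the log2 ratio of Ucp1 -0.56 and that of Cidea -0.052. Without cluster 0 the log2 ratio of Ucp1 was 0.23.

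Ucp1, the thermogenic effector itself, was sparse. It had 914 UMIs (31.4 CPM, 29.4 to 33.5) in the library labelled KO and 973 (34.9 CPM, 32.7 to 37.2) in the library labelled Flox, a log2 ratio of -0.15 (-0.29 to -0.02). Most nuclei with the transcript held a single molecule: 581 of 717 such nuclei in the library labelled KO and 559 of 722 in the library labelled Flox, with at most 7 and 9 molecules in 1 nucleus. Nuclei were sampled, so levels of cytoplasmic mRNA were not measured.

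Dio2 was the least counted member, with 79 UMIs (2.71 CPM) in the library labelled KO and 60 (2.15 CPM) in the library labelled Flox. Its log2 ratio of 0.33 had an interval from -0.17 to 0.84, so no difference was detectable at this depth. Cidea, the lipid droplet gene, stood at 1347 CPM (39242 UMIs) in the library labelled KO and 1242 CPM (34620 UMIs) in the library labelled Flox, a log2 ratio of 0.12, or -0.13 with the 4 clusters weighted equally. Its counts are large enough that this small ratio lies outside counting error. Otop1, the proton channel, had 43.1 CPM in the library labelled KO and 35.5 CPM in the library labelled Flox, with a log2 ratio of 0.28 (0.16 to 0.40).

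Kcnk3 and Letmd1 were level between the libraries. Kcnk3 had 599 CPM in the library labelled KO and 583 CPM in the library labelled Flox, with a log2 ratio of 0.04 (0.01 to 0.07). Letmd1 had 122 CPM in each library, and its log2 interval ran from -0.07 to 0.07.

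The 3 transcriptional regulators did not move together. Prdm16 stood at 680 CPM in the library labelled KO and 609 CPM in the library labelled Flox, a log2 ratio of 0.16 (0.13 to 0.19), or -0.096 with the 4 clusters weighted equally. Ebf2 stood at 2352 and 1860 CPM, a log2 ratio of 0.34 (0.32 to 0.36), and was above 0 in the pooled class under each of 19 alternative settings tried. Zic1 was lower in the library labelled KO, with 410 UMIs (14.1 CPM), against 548 UMIs (19.7 CPM) in the library labelled Flox. Its log2 ratio was -0.48 (-0.67 to -0.30). The annotated gene overlaps its neighbour Zic4 on the other strand, and the sources used here do not say whether strand was used in the counting.

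**Figure D1:**
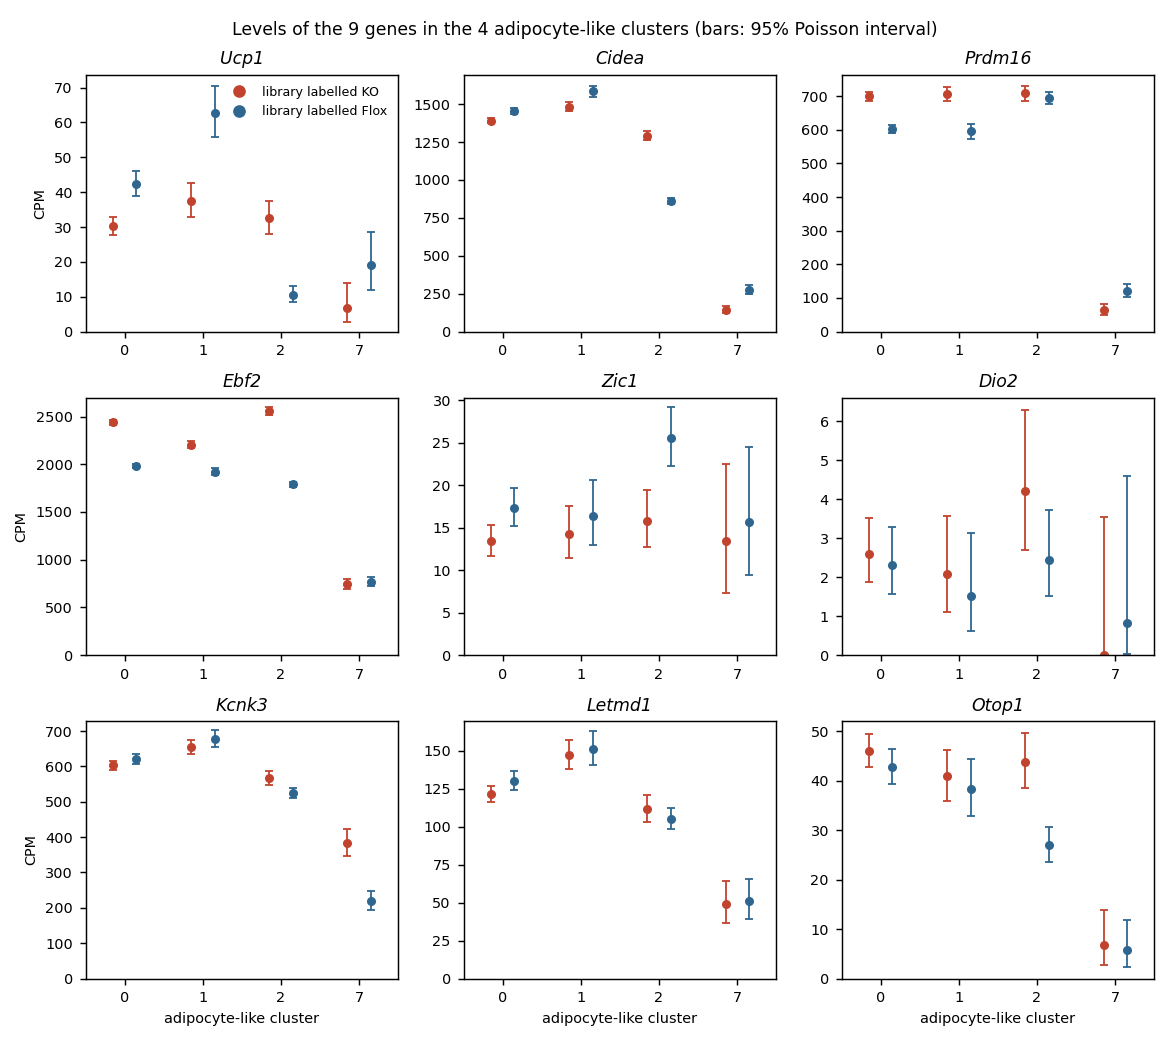
Level of each gene (y axis, CPM) in the 4 adipocyte-like clusters (x axis), with the library labelled KO left of the library labelled Flox. Bars are 95% Poisson intervals. In cluster 7 most genes are low in both libraries, and in cluster 2 Ucp1 stands at 32.5 CPM in the library labelled KO and 10.6 CPM in the library labelled Flox.

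The pooled values hid differences between the adipocyte states. Clusters were made without the 9 genes among the variable genes. Cluster 0 (led by Adra1a, Erbb4 and Ppara) held 3597 and 3564 nuclei of the libraries labelled KO and Flox, cluster 1 (Kng1, Ppara, Aspg) 3029 and 2252, cluster 2 (guanylate-binding protein genes, the Gbp family) 1295 and 2602, and cluster 7 (Slc7a10, Trhde, Retn) 276 and 392.

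Ucp1 was lower in the library labelled KO in clusters 0, 1 and 7 and higher in cluster 2. In cluster 0 it stood at 30.2 CPM (489 UMIs) in the library labelled KO and 42.3 CPM (569 UMIs) in the library labelled Flox, a log2 ratio of -0.49 (-0.66 to -0.31). In cluster 1 the levels were 37.5 CPM (233 UMIs) and 62.7 CPM (290 UMIs), a log2 ratio of -0.74 (-0.999 to -0.49). In cluster 2 the order was the opposite, with 32.5 CPM (185 UMIs) in the library labelled KO and 10.6 CPM (91 UMIs) in the library labelled Flox, a log2 ratio of 1.62 (1.25 to 2.00). The level of 10.6 CPM lay under that of macrophage/monocyte-like (14.4 CPM) and fibroblast/progenitor-like nuclei (14.9 CPM) of the same library, where the levels labelled KO were 2.03 and 4.201 CPM, so it was not separable from background. In cluster 7 only 7 UMIs (6.72 CPM) and 23 UMIs (19.0 CPM) were counted. Over clusters 0, 1 and 2, Ucp1 thus spanned 10.6 to 62.7 CPM in the library labelled Flox and 30.2 to 37.5 CPM in the library labelled KO. With cluster 7 included, the range in the library labelled KO was 6.72 to 37.5 CPM and that in the library labelled Flox was unchanged.

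Cluster 2 was where most of the genes were higher in the library labelled KO: 7 of 8 measured were above a log2 ratio of 0, 2 were at least 1.5-fold higher (4.02% of 10363 genes were) and 1 at least 1.5-fold lower (8.7%). The median log2 ratio in this cluster was 0.31 over the 8 and -0.07 over the 10363 genes, whose share above 0 was not computed. The general adipocyte markers stood higher there too, 13 of 14, with sums of 13060 CPM in the library labelled KO and 9411 CPM in the library labelled Flox; their part in the result was not tested. The 2 were Ucp1 and Otop1, which stood at 43.8 CPM in the library labelled KO and 27.0 CPM in the library labelled Flox, a log2 ratio of 0.70 (0.44 to 0.96). Cidea just missed the fold, with 1291 and 864 CPM and a log2 ratio of 0.58 (0.53 to 0.63), and Ebf2 had 2557 and 1788 CPM (0.52). Zic1 was the one counted as lower, at 15.8 CPM in the library labelled KO and 25.6 CPM in the library labelled Flox (-0.69, -1.06 to -0.33). Prdm16 was nearly level there, at 708 and 694 CPM. In cluster 1 only Ucp1 was 1.5-fold apart, as lower in the library labelled KO (5.42% of 9986 genes were lower and 3.45% higher). In cluster 0 none of the 9 was, with 3.52% of 11282 genes higher and 7.19% lower by that fold.

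The Slc7a10 and Trhde cluster was low in the brown genes in both libraries. Of the 9 genes, 8 had their lowest level there in the library labelled KO (all but Zic1) and 8 in the library labelled Flox (all but Ucp1, lowest in cluster 2). The share of all genes with their lowest level there was not computed. Some of these calls rest on few molecules. Dio2 had 0 UMIs there in the library labelled KO and 1 in the library labelled Flox, and Otop1 had 7 in each. Ucp1 had 7 in the library labelled KO, and Zic1 had 19 in the library labelled Flox. The intervals of Dio2 and Zic1 overlapped those of other adipocyte-like clusters, so their calls lie within counting error. Cidea stood at 142 CPM in the library labelled KO and 276 CPM in the library labelled Flox (-0.95, -1.24 to -0.67), and Prdm16 at 65.3 and 120 CPM (-0.88, -1.32 to -0.46). Kcnk3 went the other way, with 384 CPM in the library labelled KO and 219 CPM in the library labelled Flox, a log2 ratio of 0.81 (0.58 to 1.04). Ebf2 was level at 741 and 768 CPM. Cidea and Prdm16 were thus 2 of 5 measured genes at least 1.5-fold lower (6.34% of 6531 genes were), and Kcnk3 the 1 that was higher (5.27%). Of 9 measured genes of white depots, 6 had their highest level of the 4 clusters there in the library labelled KO and 7 in the library labelled Flox, while 3 and 1 had their lowest. Slc7a10, an amino acid transporter, stood at 950 and 720 CPM there, against at most 6.27 CPM in any other adipocyte-like cluster of either library. Trhde stood at 856 and 724 CPM, Agt, the angiotensin precursor, at 266 and 238 CPM, and Retn, which encodes the hormone resistin, at 979 and 701 CPM. Npr3, a natriuretic peptide receptor, went the other way, with 10.6 and 29.7 CPM there, against at least 41.6 CPM in each other cluster. These genes helped to form the cluster, so their levels describe it and test nothing.

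**Figure D2:**
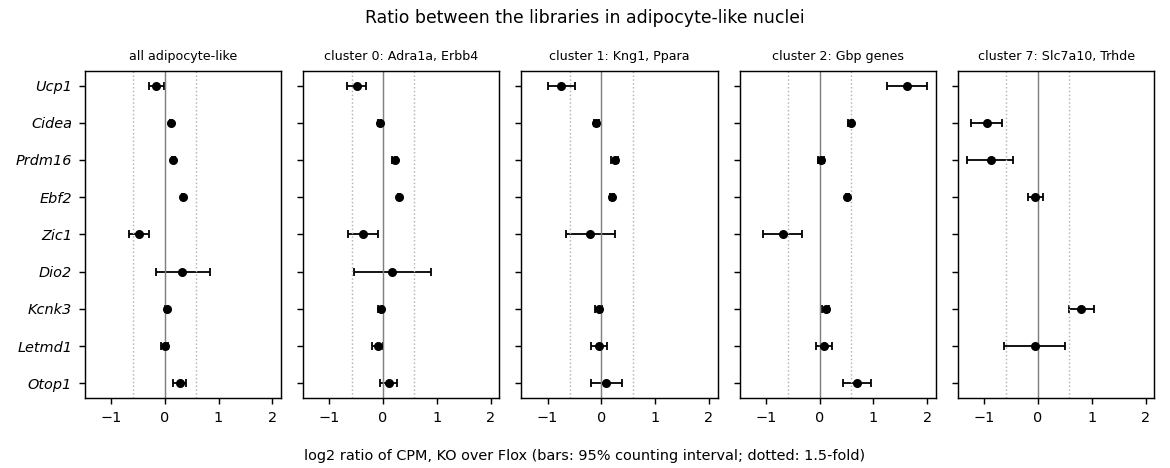
Log2 ratio of CPM, KO over Flox (x axis), for each gene with at least 50 UMIs (y axis), in all adipocyte-like nuclei and in each of the 4 adipocyte-like clusters. Bars are 95% counting intervals and dotted lines mark 1.5-fold; Ucp1 lies at -0.49 in cluster 0, -0.74 in cluster 1 and 1.62 in cluster 2.

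In the library labelled KO, Ucp1 levels also rose with the mitochondrial share of a nucleus's UMIs, a share that differed between the libraries. Adipocyte-like nuclei labelled KO with a share under 0.5%, from 0.5 to 1%, from 1 to 2% and from 2 to 10% had 15.9, 25.1, 37.4 and 49.7 CPM of Ucp1. In the library labelled Flox the same bins had 34.3, 35.0, 35.8 and 66.6 CPM, the last from 21 UMIs. The libraries therefore differed below 1% and not detectably above it. The lowest bin held 10.6% of adipocyte-like nuclei in the library labelled KO and 63.5% in the library labelled Flox. Below 1% the log2 ratio of Ucp1 was -0.61, at least 1.5-fold lower. Within clusters of the library labelled Flox, Ucp1 fell from the lowest bin to the next in cluster 0 (46.8 and 34.2 CPM) and cluster 1 (75.6 and 51.2 CPM). From 1 to 2% these clusters had 31.7 CPM (24 UMIs) and 47.8 CPM (29 UMIs), with intervals overlapping those of the bin before. In cluster 2 the values over the bins up to 2% were 9.74, 14.2 and 16.2 CPM, from 70, 16 and 4 UMIs. Those of cluster 7 rose too, from 10, 3 and 2 UMIs. The intervals of the bins overlapped within each of clusters 2 and 7, so these rises lie within counting error.

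Otop1 also moved with this share in the library labelled KO, with 31.7, 40.5, 44.5 and 57.7 CPM over the bins, against 36.5, 34.4, 26.7 and 47.6 CPM in the library labelled Flox. Zic1 was lower in the library labelled KO in all 4 bins (14.9, 13.5, 14.4 and 14.1 CPM, against 19.5, 19.4, 23.1 and 19.0 CPM in the library labelled Flox), and Ebf2 was higher in all 4. Cidea crossed, at 1144 CPM in the library labelled KO and 1201 CPM in the library labelled Flox in the lowest bin and at 1357 and 1320 CPM in the next. Within cluster 2, Cidea was higher in the library labelled KO in each bin, for example 1181 CPM in that library and 865 CPM in the library labelled Flox under 0.5%. Ucp1 in cluster 2 under 0.5% was 20.3 CPM (16 UMIs) in the library labelled KO and 9.74 CPM (70 UMIs) in the library labelled Flox. In cluster 0 it was 16.4 CPM (45 UMIs) and 46.8 CPM (412 UMIs) in the same bin. From 1 to 2%, cluster 0 had 36.2 CPM in the library labelled KO and 31.7 CPM (24 UMIs) in the library labelled Flox, with overlapping intervals.

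**Figure D3:**
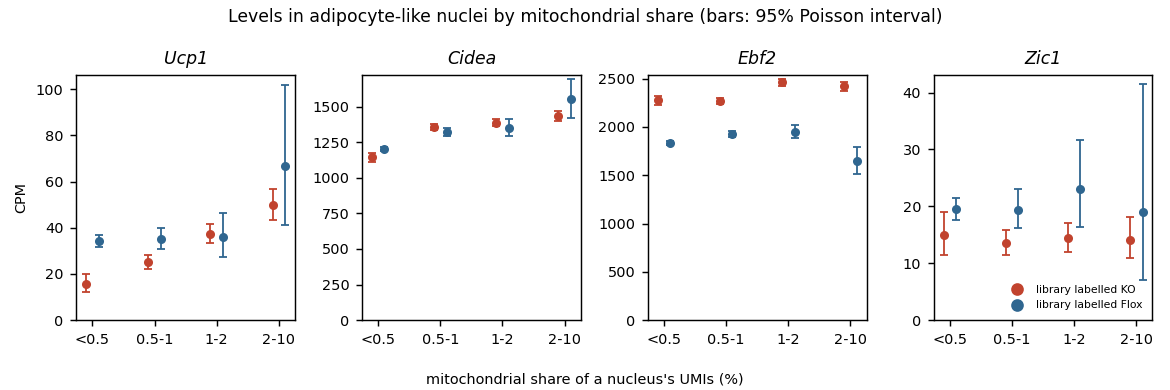
Levels of Ucp1, Cidea, Ebf2 and Zic1 (y axis, CPM) in adipocyte-like nuclei by mitochondrial share of UMIs (x axis, percent), with the library labelled KO left of the library labelled Flox and 95% Poisson intervals. Ucp1 in the library labelled KO runs through 15.9, 25.1, 37.4 and 49.7 CPM over the bins.

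The share of nuclei with a transcript was read at equal depth, after thinning each nucleus to 1000 UMIs and leaving out 500 and 100 shallower adipocyte-like nuclei of the libraries labelled KO and Flox. Ucp1 was then seen in 2.83% (2.47 to 3.23) of adipocyte-like nuclei in the library labelled KO and 3.23% (2.87 to 3.62) in the library labelled Flox, and before thinning in 8.75% and 8.20%. Endothelial-like nuclei, which should lack it, showed it in 1.17% (0.506 to 2.29) and 2.902% (1.90 to 4.22), at median depths before thinning of 1585 and 1249.5 UMIs, against 3094 and 2757 UMIs in adipocyte-like nuclei. In the library labelled Flox the endothelial-like interval thus contained the adipocyte-like share. By level, Ucp1 in macrophage/monocyte-like and fibroblast/progenitor-like nuclei of that library was lower, at 14.4 and 14.9 CPM, against 34.9 CPM in adipocyte-like nuclei. Dio2 was seen in 0.247% and 0.195% of thinned adipocyte-like nuclei, and in 0 of 684 and 0 of 896 endothelial-like nuclei, which allows shares of up to 0.439% and 0.335%. Its share was not separable from background at this depth. By level, nuclei outside the class held 2 UMIs in the library labelled KO, 10.3% (1.23 to 38.6) of the adipocyte-like level, and 8 UMIs in the library labelled Flox, 38.2% (15.8 to 80.1).

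Zic1 was seen in 1.16% (0.930 to 1.42) of thinned adipocyte-like nuclei in the library labelled KO and 2.06% (1.77 to 2.38) in the library labelled Flox. In endothelial-like nuclei it was seen in 0 of 684 (up to 0.439%) and in 1.004% (0.460 to 1.90). Otop1 was seen in 3.77% and 3.47% of adipocyte-like nuclei, against 0.292% and 0.335% of endothelial-like ones. Cidea, Prdm16, Ebf2 and Kcnk3 were seen in between 42.3% and 80.7% of adipocyte-like nuclei in either library, and Letmd1 in 12.0% and 11.1%. These shares are not per length, and the annotated spans differ widely: 321 kb for Prdm16, 198 kb for Ebf2, 37.1 kb for Kcnk3 and 24.2 kb for Cidea, but 8.10 kb for Ucp1 and 7.75 kb for Zic1 (GENCODE, GRCm38).

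Outside the adipocyte-like class, Ebf2 and Zic1 stood far above the level of free adipocyte RNA in some classes, and Ucp1 differed between the libraries. Ebf2, known in adipocyte precursors, stood in fibroblast/progenitor-like nuclei at 2291 CPM in the library labelled KO and 2256 CPM in the library labelled Flox, 97.4% and 121% of its adipocyte-like levels. In pericyte/smooth muscle-like nuclei it stood at 2300 and 2811 CPM. Zic1 was more abundant in fibroblast/progenitor-like nuclei than in adipocyte-like ones: 71.4 CPM in the library labelled KO and 63.8 CPM in the library labelled Flox, 508% and 325% of the adipocyte-like level. The lower level seen in the adipocyte-like class of the library labelled KO was thus not seen in fibroblast/progenitor-like nuclei (log2 0.16, -0.12 to 0.44). A test of that contrast between classes was not possible with 1 library a label.

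Free RNA from broken adipocytes can enter every droplet, and the 14 adipocyte markers were used as its measure. In macrophage/monocyte-like nuclei the median marker stood at 10.6% of its adipocyte-like level in the library labelled KO and 12.1% in the library labelled Flox. Cidea (10.5% and 14.9%), Kcnk3 (9.16% and 8.82%), Prdm16 (4.33% and 5.07%) and Ebf2 (5.92% and 7.02%) lay near or under those medians. Letmd1 stood above them but alike in both libraries, at 33.2% and 33.6%. Ucp1 was at 6.48% (0.784 to 23.5, 2 UMIs) in the library labelled KO but 41.3% (22.5 to 69.6, 14 UMIs) in the library labelled Flox. In fibroblast/progenitor-like nuclei it was at 13.4% (6.90 to 23.5) and 42.8% (32.0 to 56.2), against marker medians of 12.0% and 14.3%. Relative to the marker medians, Ucp1 in these classes was therefore higher in the library labelled Flox. Single markers of that library ran from 8.96% to 45.4% in macrophage/monocyte-like nuclei and from 8.95% to 35.6% in fibroblast/progenitor-like nuclei. Ucp1 lay within the first range, and its interval reached into the second. Over all nuclei outside the class, Ucp1 stood at 8.55 CPM (61 UMIs) in the library labelled KO and 26.1 CPM (254 UMIs) in the library labelled Flox, a log2 ratio of -1.60 (-2.04 to -1.20). Of 8 members measured there 3 were at least 1.5-fold lower (5.94% of 12567 genes were) and 0 were higher (3.02%).

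The adipocyte-like value was also read with this background taken off, a step chosen after the data were seen. With the macrophage/monocyte-like level of the same library taken off, Ucp1 stood at 29.3 CPM in the library labelled KO and 20.5 CPM in the library labelled Flox, a log2 ratio of 0.52 in place of -0.15. The levels taken off rest on 2 and 14 UMIs, and no interval was computed for the 0.52. The step takes free RNA as an equal share of UMIs in both classes, which was not tested. Median depths differed, at 2757 UMIs in adipocyte-like and 1591.5 UMIs in macrophage/monocyte-like nuclei of the library labelled Flox. With the endothelial-like level taken off it stood at 16.1 and 0.932 CPM, and the remainder in the library labelled Flox cannot be told from 0, since the endothelial-like interval (27.0 to 42.2 CPM) overlapped that of adipocyte-like nuclei. The sign of the pooled Ucp1 ratio changed with either level taken off. Ebf2 (0.36 and 0.48), Otop1 (0.36 and 0.23) and Cidea (0.19 and 0.39) kept theirs under both subtractions. Zic1 was -0.34 with the macrophage/monocyte-like level taken off and 0.70 with the endothelial-like level taken off.

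Endothelial-like nuclei held more adipocyte RNA in the library labelled Flox. The adipocyte markers there summed to 2179 CPM in the library labelled KO and 3121 CPM in the library labelled Flox, with 0 of 14 higher in the library labelled KO, and 5 of 6 measured members were at least 1.5-fold lower in that library and 0 higher (10.1% of 8563 genes were lower and 2.99% higher). Ucp1 stood at 15.3 CPM in the library labelled KO and 34.0 CPM in the library labelled Flox, 48.8% (32.2 to 71.0) and 97.3% (76.7 to 122) of its adipocyte-like levels. The marker medians were 15.1% and 23.2%. The other 4 were Cidea (224 and 384 CPM), Prdm16 (84.1 and 132 CPM), Ebf2 (139 and 272 CPM) and Letmd1 (27.3 and 47.2 CPM). The part that free RNA or joined nuclei have in these values was not tested. An unnamed cluster led by haemoglobin and vessel genes, of 86 and 199 nuclei, held 29.4 CPM of Ucp1 in the library labelled KO (8 UMIs) and 101 CPM in the library labelled Flox (58 UMIs). The 14 adipocyte markers in this cluster summed to 9430 and 8545 CPM, and the 11 endothelial markers to 4708 and 2970 CPM. The source of the Ucp1 counted there was not tested.

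**Figure D4:**
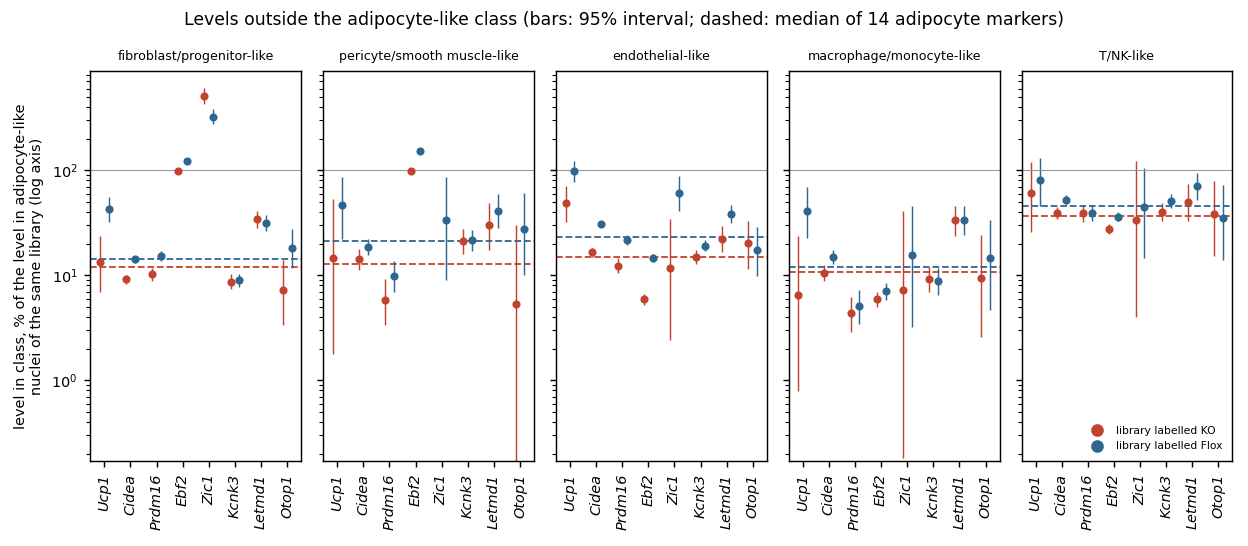
Level of each gene in 5 other cell classes as a percentage of its level in adipocyte-like nuclei of the same library (y axis, log scale), with the library labelled KO left of the library labelled Flox, 95% intervals, and dashed lines for the median of 14 adipocyte markers. Dio2 and values at 0 are left out. In fibroblast/progenitor-like nuclei Ebf2 lies at 97.4% and 121% and Zic1 at 508% and 325%. Ucp1 of the library labelled Flox lies above its dashed line in all 5 classes. Ucp1 of the library labelled KO lies above its own line in each class but the macrophage/monocyte-like one, by little in fibroblast/progenitor-like and pericyte/smooth muscle-like nuclei.

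The wider brown programme leaned higher in the library labelled KO, as did the general adipocyte markers (median log2 ratio 0.17, 11 of 14 above 0). Of 39 listed thermogenic genes outside the set, 38 were in the files and 33 measured in adipocyte-like nuclei. Of these, 3 were higher by 1.5-fold or more in the library labelled KO and 1 was lower (2.03% and 8.14% of all genes were). In that list 21 lay above 0, and the median log2 ratio was 0.23, against -0.06 over all genes. Among nuclei under 1% mitochondrial UMIs the median of the list was 0.041. Cox8b and Cox7a1, respiratory chain subunits typical of brown fat and muscle, stood at 197 and 49.4 CPM in the library labelled KO, against 109 and 27.9 CPM in the library labelled Flox (0.86 and 0.83). Irf4, a factor that works with Ppargc1a, had 22.1 and 13.3 CPM (0.73), and Eva1a, a brown marker, 11.05 and 7.605 CPM (0.54). At the other end, Gys2, a glycogen synthase, had 10.0 CPM in the library labelled KO and 16.9 CPM in the library labelled Flox (-0.76), and Tbx15, Epsti1 and Thra had log2 ratios of -0.34, -0.28 and -0.23. Ppargc1a, the coactivator of mitochondrial genes, stood at 775 and 550 CPM (0.49). The summed skeletal muscle markers in adipocyte-like nuclei, from RNA of another cell type, were 77.3 CPM in the library labelled KO and 186 CPM in the library labelled Flox. Their part in these values was not tested.

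Markers of white depots showed no shared direction, with 9 of 12 genes measured and a median log2 ratio of 0.08. By 1.5-fold, 0 were higher and 1 was lower (2.03% and 8.14% of all genes were). The lower one was Mest, at 34 UMIs (1.17 CPM) in the library labelled KO and 68 UMIs (2.44 CPM) in the library labelled Flox (-1.05). Agt and Trhde were also under 0 (-0.17 and -0.07), and Lep, which encodes leptin, Nnat, Slc7a10 and Hoxc8 had log2 ratios of 0.26, 0.21, 0.12 and 0.10. Relatives of the 9 genes had a median of 0.01 over 11 measured of 19, with 3 higher and 0 lower by 1.5-fold, beside the same shares of all genes. The 3 were Ucp2 (11.9 CPM in the library labelled KO and 5.92 CPM in the library labelled Flox, 1.002), Ucp3 (111 and 61.7 CPM, 0.85) and Cideb (1.99 and 1.22 CPM, 0.70), and the next was Mecom, the closest relative of Prdm16 in the list (0.25). Letm2, Ebf3, Zic4 and Ebf4 lay lowest, at -0.50, -0.32, -0.22 and -0.12, with Zic4 on the same side as its neighbour Zic1. Among muscle lineage regulators, which brown precursors share with muscle, En1 stood at 0.789 CPM in the library labelled KO and 1.54 CPM in the library labelled Flox (-0.95).

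**Figure D5:**
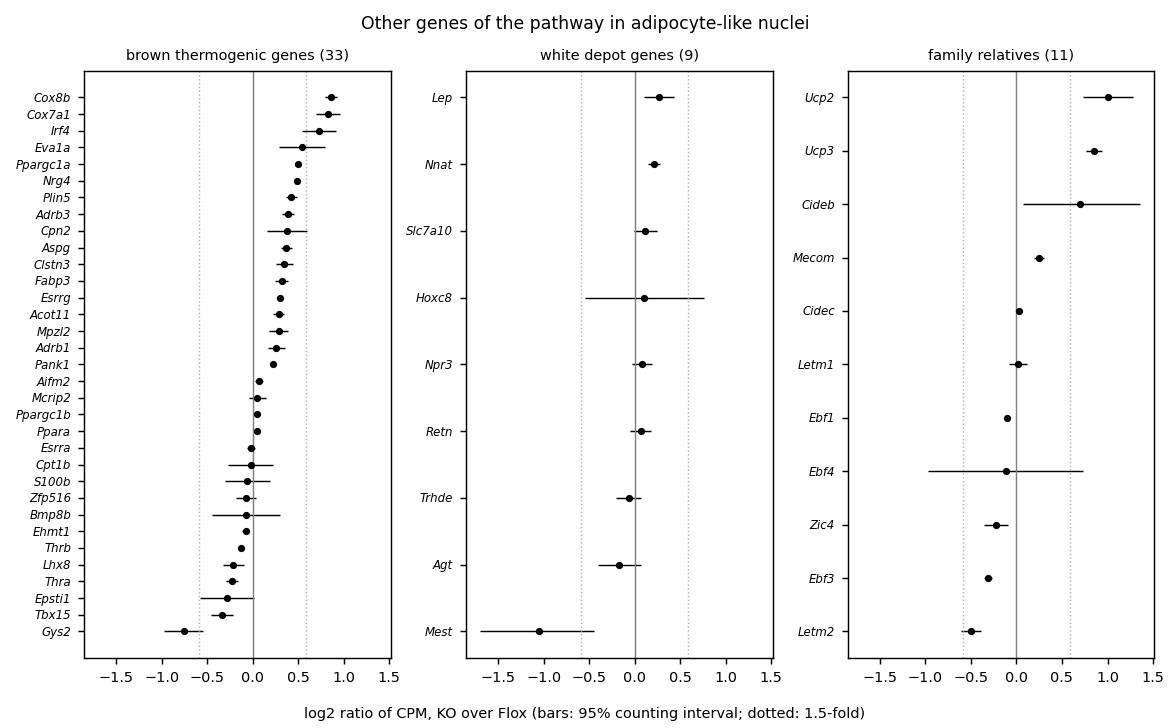
Log2 ratio of CPM in adipocyte-like nuclei, KO over Flox (x axis), for the measured genes of 3 lists (y axis): 33 brown thermogenic genes, 9 white depot genes and 11 relatives of the 9 genes. Bars are 95% counting intervals and dotted lines mark 1.5-fold; Cox8b at 0.86 and Gys2 at -0.76 are the ends of the first list.

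Across 25 pairs of cluster and library with at least 50 nuclei, the 9 genes did not follow 1 pattern. Cidea, Prdm16, Kcnk3 and Letmd1 varied together, with Pearson r of log2(CPM + 1) between 0.87 and 0.94 for every pair among them. Ucp1 was less like them (0.69 with Cidea, 0.60 with Kcnk3), and Zic1 unlike them (-0.02 with Cidea) but closer to Ebf2 (0.50). Among 9684 genes the most alike to Ucp1 were Ghitm, Micos13 and Coq6 (0.83 each). Cidea was most like Lgr6, Sucla2 and Hadha (0.98 each), and Prdm16 most like Akap1 (0.97), Ntrk3 and Pank1 (0.96 each). Ebf2 was most like Sox5 (0.94), Radil and Pde3a (0.91 each), and Zic1 most like Wnt5a (0.93), Plekhf1 (0.87) and its neighbour Zic4 (0.84). For Kcnk3 they were Pck1, Gpd1 and Bbof1 (0.97 each), for Letmd1 Dlst (0.96), Atxn2 and Pkd2l2 (0.95 each), and for Otop1 Fam161b (0.93), Myo5b and Mbd5 (0.91 each). Dio2 had too few UMIs for this. The pairs share library, depth and free RNA, so these values describe and carry no p-value.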

How the data were processed

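Nuclei of brown adipose tissue were counted as unique molecules (UMIs) per gene and barcode. The deposited counts are whole-number UMI counts made by the authors: per the file headers the tool was Cell Ranger 5.0.0, and per the submitters' processing notes the build was mm10. The sources used here do not say whether intronic reads were counted. Here, barcodes with under 200 genes or over 10% mitochondrial UMIs were removed, as were likely doublets (the highest Scrublet-type scores, 0.8% per 1000 barcodes). The rest were clustered in scanpy 1.11.5 (2000 variable genes without the 9 genes studied, 30 components, 15 neighbours, Leiden resolution 0.5) and named from marker lists. Levels are summed UMIs per class scaled to 1000000 (CPM), with exact Poisson intervals, binomial ones for ratios and Clopper-Pearson ones for shares. Log2 ratios add 0.5 UMI, and genes need 50 UMIs to be counted at 1.5-fold. A count of 0 is given the limit of 3. With 1 library per label no test was run; the counting was tested on simulated data. The genes named are the 9, Nfe2l1, the list genes furthest apart (4 each way) and the 3 most alike to each. Chosen after the values were seen were Ppargc1a, the mitochondrial bins, the subtraction of other classes and the lists by cluster. The 9 genes and all lists were chosen with earlier results of these data known. Alternatives included edgeR 4.0.16 TMM factors. Some genes of the lists are not reported here.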

Additional observations from a re-analysis of the deposited data

Results flagged for a closer look

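Several genes had ratios of opposite sign in 2 adipocyte-like clusters, each outside counting error; with 1 library per label none of these differences was tested. Ucp1 had a log2 ratio, KO over Flox, of 1.62 in cluster 2 and -1.43 in cluster 7 (30 UMIs in all). Cidea had 0.58 in cluster 2 and -0.95 in cluster 7. Prdm16 had 0.25 in cluster 1 and -0.88 in cluster 7. Kcnk3 had 0.81 in cluster 7 and -0.043 in cluster 0. The interval of the latter ended at -0.00058, and the median over 11282 genes in cluster 0 was -0.039.

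For 5 genes the ratio also had opposite signs in adipocyte-like and in all other nuclei, likewise untested. Cidea stood at 0.12 in adipocyte-like nuclei and -0.61 (-0.70 to -0.52) outside them. Prdm16 stood at 0.16 and -0.41, Kcnk3 at 0.038 and -0.32, Otop1 at 0.28 and -0.61, and Ebf2 at 0.34 and -0.046. The summed adipocyte markers went the same ways, with 13523 CPM in the library labelled KO and 11059 CPM in the library labelled Flox inside the class, and 2325 and 2801 CPM outside it.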

How the results depend on the processing

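No paired analysis was possible because each label has 1 library and the labels carry no replicate numbers. The pooled Ucp1 log2 ratio of -0.15 changed sign in 4 of 19 alternatives: it was 0.23 without cluster 0, 0.017 without cluster 1, -0.56 without cluster 2, -0.61 in nuclei under 1% mitochondrial UMIs, 0.52 with the macrophage/monocyte-like level taken off and 4.11 with the endothelial-like level taken off. The 4.11 gives no size, since the 0.932 CPM then left in the library labelled Flox cannot be told from 0. In the Gbp-led cluster (cluster 2 in the main run) the Ucp1 ratio lay between 1.55 and 1.88 under 6 other filters and clusterings. The nuclei in that cluster depended on the setting. Those labelled KO numbered 1295 in the main run, 449 with at most 5% mitochondrial UMIs and 334 at Leiden resolution 1.0. Those labelled Flox numbered 2602, 2263 and 1863. Ebf2 and Otop1 stayed above 0 in 19 of 19 alternatives, and Zic1 below 0 in 18 of 19, the exception being 0.70 with the endothelial-like level taken off. Letmd1, at -0.0023, changed sign in 7 of 19. The count of 0 of 9 genes 1.5-fold higher held in 18 of 18, with the subtractions not counted, and of 0 lower in 17, with 1 (Ucp1) under 1% mitochondrial UMIs.

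The median of the 9 genes, 0.12, was 0.20 with TMM factors, 0.15 as a mean over nuclei, 0.067 after thinning, 0.23, 0.14 and -0.0064 without clusters 0, 1 and 2, -0.029 with clusters weighted equally and 0.077 under 1% mitochondrial UMIs. The brown list median, 0.23, was 0.14 with doublets kept, 0.31 with TMM factors, 0.16 after thinning, 0.14 without cluster 2, 0.083 with clusters weighted equally, 0.066 at 20 UMIs and 0.041 under 1% mitochondrial UMIs. Its count of 3 higher was 6 and 5 without clusters 1 and 2, and its count of 1 lower was 2 with doublets kept and without cluster 0, and 3 at 20 UMIs. The white list median, 0.08, was -0.079 and -0.17 without clusters 2 and 7, -0.22 with clusters weighted equally and 0.35 under 1% mitochondrial UMIs. Over all genes, 250 were higher, 420 with TMM factors and 404 at 20 UMIs, and 1002 lower, 602 after thinning. The causes were not tested. The settings on mitochondrial share and subtraction were chosen after seeing the data.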
